A study of Mus musculus with 21 samples.

Results

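The insulin-like growth factor (IGF) genes described here are the ligand Igf1, its receptor Igf1r and the 7 IGF binding proteins Igfbp1 to Igfbp7. These 9 genes were found by their symbols, each in 1 row, among the 27968 genes listed for sorted cells and the 22899 listed for cocultures. RNA-seq was performed on 21 libraries in 7 groups of 3 replicates, and expression was given as FPKM, which scales the fragments of a gene by transcript length and library size. In the in vitro system, mouse pluripotent stem cells (PSCs) formed hematopoietic-like colonies in a 3D self-assembling peptide. The colonies were reseeded for 5 days on mitomycin-treated OP9 stromal cells (3D+OP9) or on 0.1% gelatin (3D+0.1%gel). The medium described for the OP9 coculture held SCF, IL-3 and Flt3 ligand. Total cells of both cultures were sequenced. From 3D+OP9, Lineage-negative Sca-1+ c-kit+ (LSK) cells were sorted with and without CD201, the endothelial protein C receptor (D5-LSKCD201+ and D5-LSKCD201-). They were compared with undifferentiated cells sorted on SSEA-1 (mESC), which are grown on embryonic fibroblasts, and with LSKCD201+ cells of C57BL/6 mice, from bone marrow at 6 to 8 weeks (BM-LSKCD201+) or from fetal liver at E12.5 (FL-LSKCD201+). Strain and source cannot be told apart in any comparison of D5 with BM or FL cells, since by the labels every PSC-derived group is 129/ola and both in vivo groups are C57BL/6. The study's methods name stem cells of both strains.

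IGF-I and IGF-II are secreted peptides that signal for growth and survival through the receptor tyrosine kinase IGF1R. The binding proteins hold IGFs outside the cell, where they prolong the life of the ligand, keep it from the receptor or, after cleavage by proteases, release it. Fetal liver stroma is known as a source of IGF-II for hematopoietic stem cells, and IGFBP2 is known to favor their expansion in culture.

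The binding protein genes include 2 neighboring pairs, whose members are transcribed towards each other (GRCm38, GENCODE M21). Igfbp2 (chr1:72824503-72852474, plus strand) and Igfbp5 (chr1:72857932-72874884, minus strand) are 5457 bases apart. Igfbp1 (chr11:7197782-7202546, plus strand) and Igfbp3 (chr11:7206086-7213923, minus strand) are 3539 bases apart. The promoters of these 4 genes are shown because the genes of a pair had different expression patterns. Each sequence is the 250 bases before the RefSeq start (GRCm38.p6), read 5′ to 3′ on the gene's strand, and capitals mark matches on either strand to the TATA box letters TATAAA, their variant TATATA, the GC box GGGCGG, the Notch effector (RBPJ) letters TGGGAA, the GATA factor letters GATAAG and the core ACGTG of E-boxes and hypoxia sites.
Igfbp2, chr1:72824230-72824479, plus strand: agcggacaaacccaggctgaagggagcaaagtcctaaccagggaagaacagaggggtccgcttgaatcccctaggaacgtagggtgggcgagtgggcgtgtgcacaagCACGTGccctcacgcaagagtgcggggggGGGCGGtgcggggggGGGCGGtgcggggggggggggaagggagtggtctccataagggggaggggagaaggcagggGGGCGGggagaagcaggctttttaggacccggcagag
Igfbp5, chr1:72874866-72875115, minus strand: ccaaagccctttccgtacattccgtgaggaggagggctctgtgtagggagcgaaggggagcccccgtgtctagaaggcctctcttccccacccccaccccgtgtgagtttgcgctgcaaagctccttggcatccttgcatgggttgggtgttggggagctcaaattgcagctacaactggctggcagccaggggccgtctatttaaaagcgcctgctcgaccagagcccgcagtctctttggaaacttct
Igfbp1, chr11:7197537-7197786, plus strand: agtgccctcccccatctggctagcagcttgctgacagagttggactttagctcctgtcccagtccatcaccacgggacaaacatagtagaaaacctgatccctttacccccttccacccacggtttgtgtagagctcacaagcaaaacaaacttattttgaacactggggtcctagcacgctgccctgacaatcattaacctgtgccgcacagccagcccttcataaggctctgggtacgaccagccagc
Igfbp3, chr11:7213924-7214173, minus strand: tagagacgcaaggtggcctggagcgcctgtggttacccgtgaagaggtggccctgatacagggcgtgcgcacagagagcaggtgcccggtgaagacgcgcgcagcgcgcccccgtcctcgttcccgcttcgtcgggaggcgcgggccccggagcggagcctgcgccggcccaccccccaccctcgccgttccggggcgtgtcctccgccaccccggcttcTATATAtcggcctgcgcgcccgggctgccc

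The Igfbp2 promoter held 3 matches to GGGCGG, found in 32.7% of 32851 mouse promoter windows of this length, and a palindrome that matched ACGTG on both strands, a motif found in 16.6%. Igfbp3 held 1 match to TATATA, found in 5.25% of windows. Neither Igfbp5 nor Igfbp1 held any of the 6 motifs. GATAAG, found in 6.55% of windows, and TGGGAA, found in 21.6%, were in none of the 4 windows, and TATAAA, found in 12.4%, was also absent. The number of CpG dinucleotides was 32 in Igfbp3, 14 in Igfbp2, 10 in Igfbp5 and 5 in Igfbp1. These matches describe the letters only.

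The labels were checked against marker lists. D5-LSKCD201+ libraries were high in all 9 endothelial markers, whose summed level was 1805 to 1827 FPKM against 114 to 119.9 in D5-LSKCD201-. The hematopoietic markers Ptprc and Cd48 were at most 0.602 and 0.112 FPKM in D5-LSKCD201+, against at least 38.4 and 34.4 FPKM in FL and BM, while Itga2b was 44.4 to 45.6 FPKM and Spi1 12.3 to 13.5. The sum of 10 hematopoietic markers was 73.5 to 75.6 FPKM in D5-LSKCD201+ and 1215 to 1412 in FL. Stromal and fibroblast markers summed to 90.7 to 95.2 FPKM in D5-LSKCD201+ and 36.3 to 70.0 in D5-LSKCD201-. Their sum was at most 15.5 FPKM in mESC, FL and BM. Preadipocyte markers summed to 58.0 to 58.2 FPKM in D5-LSKCD201+ and 39.0 to 45.7 in D5-LSKCD201-, but 119 to 147 in FL and 374 to 516 in BM. How much RNA of the sorted cells came from stromal cells was not tested. D5-LSKCD201- libraries kept a pluripotent marker sum of 3485 to 3916 FPKM, against 6311 to 6854 in mESC and 24.5 to 32.8 in D5-LSKCD201+. Across genes, D5-LSKCD201- replicate 2, FL replicate 1, BM replicate 1 and 3D+OP9 replicate 3 correlated less with their group (Pearson's r of 0.976 to 0.989) than the other pair of replicates did (0.996 to 0.998). Without these libraries in turn, the members called were the same in number as below, except 3 in place of 2 for FL against BM without FL replicate 1. FPKM summed to 483263 to 620332 per library, and the sequencing depth is unknown, so no counting error can be given. In bulk libraries, fewer cells of a type and less RNA per cell cannot be told apart.

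The leading binding protein was Igfbp2 in mESC and D5-LSKCD201- cells, Igfbp3 in D5-LSKCD201+ cells and Igfbp4 in FL and BM cells. In mESC, Igfbp2 held 94.6% ± 0.360 (SD, n = 3) of the summed Igfbp1 to Igfbp7 FPKM, and in D5-LSKCD201- cells it held 89.8% ± 1.27. In D5-LSKCD201+ cells, Igfbp3 held 58.5% ± 0.440, Igfbp4 25.5% ± 0.363 and Igfbp2 9.73% ± 0.735. In FL and BM cells, Igfbp4 held 96.1% ± 0.926 and 97.2% ± 1.22. The sum itself was 1054 ± 14.3 FPKM in D5-LSKCD201+ cells and 1077 ± 76.4 FPKM in those without CD201, and the libraries of these 2 groups overlapped. It was 282 ± 8.41 FPKM in mESC, 96.6 ± 8.03 in FL and 96.8 ± 15.1 in BM. The D5 groups thus had overlapping sums made up of different members.

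**Figure D1:**
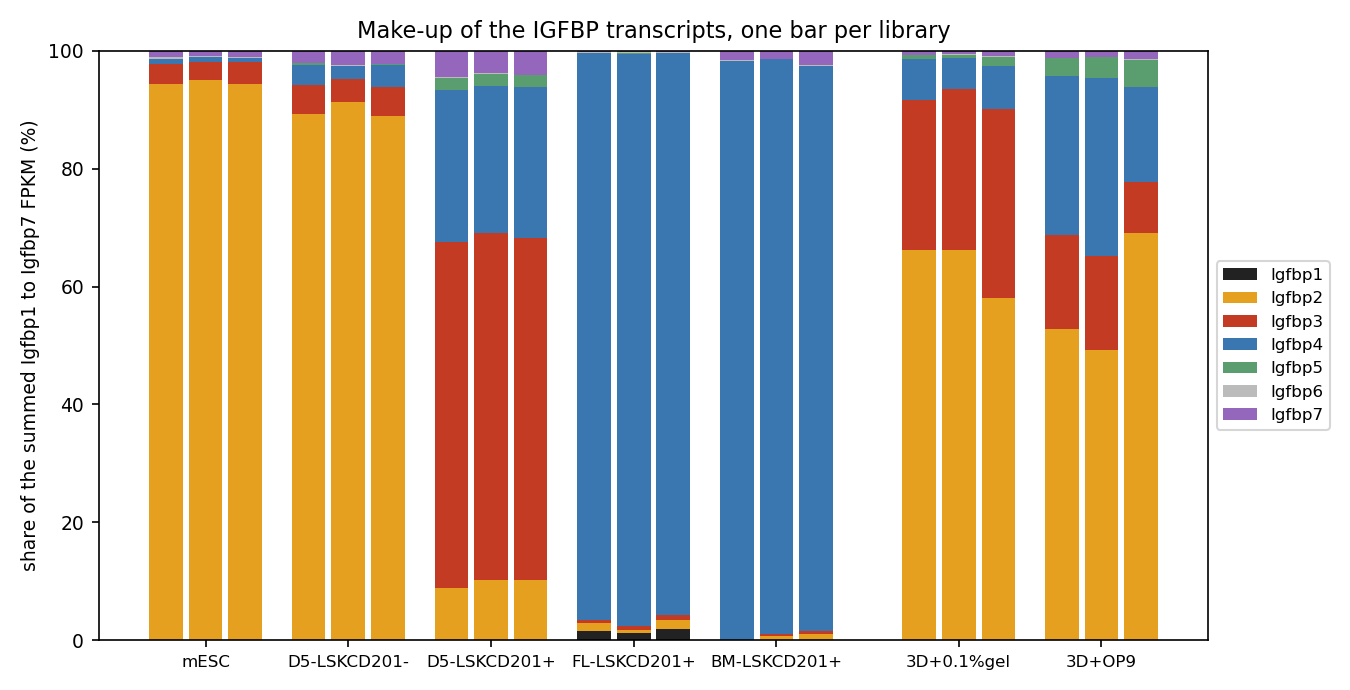
Share of the summed Igfbp1 to Igfbp7 FPKM (%, vertical axis) held by each binding protein, with 1 bar for each of 21 libraries and 3 replicates per group; sorted cells are on the left and cocultures, normalized separately, on the right. Igfbp2 fills most of the mESC and D5-LSKCD201- bars, Igfbp3 leads in D5-LSKCD201+, and Igfbp4 fills the FL and BM bars.

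Igf1, the ligand, was 48.0, 52.2 and 50.4 FPKM in D5-LSKCD201+ replicates 1 to 3. It was 3.92, 3.08 and 4.20 FPKM in D5-LSKCD201-, 9.45, 12.1 and 12.9 in FL, 5.45, 5.16 and 5.35 in BM, and 0.356, 0.335 and 0.486 in mESC. The order was therefore D5-LSKCD201+, FL, BM, D5-LSKCD201- and mESC, with no overlap between neighbors. Igf1 (chr10:87858265-87937042, plus strand) overlaps the antisense gene Igf1os over 5117 bases, and Igf1os was at most 0.126 FPKM in any sorted-cell library. Whether counting used strand is not given in the sources used here, so reads in an overlap cannot be told apart.

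Igf1r, the receptor (chr7:67952827-68233668), had another order. It was 10.4, 7.02 and 7.57 FPKM in BM and 6.39, 8.0 and 8.21 in FL, which overlapped. It was 1.43, 2.30 and 1.94 FPKM in D5-LSKCD201+, which overlapped the 1.40, 0.847 and 1.78 FPKM of D5-LSKCD201-. All mESC libraries, at 0.684, 0.790 and 0.647 FPKM, were below them. The cells highest in Igf1 were thus not those highest in its receptor.

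Igfbp3, the main carrier of IGFs in blood and a gene of arterial endothelium, was the most abundant member in D5-LSKCD201+ cells. Its level there was 615, 614 and 621 FPKM, and its mean ranked 94th of the 27968 genes. The other groups were 49.9, 44.5 and 52.8 FPKM in D5-LSKCD201-, 10.1, 8.67 and 10.1 in mESC, 0.546, 0.624 and 0.755 in FL, and 0, 0.379 and 0.480 in BM. No neighbors in this order overlapped. Its neighbor on the chromosome, Igfbp1, best known as a product of liver, had another pattern. Igfbp1 was 1.57, 1.19 and 1.66 FPKM in FL and 0.241, 0.259 and 0.229 in D5-LSKCD201+. It was listed at 0 in every BM and D5-LSKCD201- library and in 2 of 3 mESC libraries. FL libraries also held hepatoblast genes, with a summed level of 418 to 634 FPKM over 8 markers against 6.08 to 9.78 in BM and 3.13 to 4.05 in D5-LSKCD201+. Alb was 63.0 to 73.7 FPKM in FL and at most 0.0823 in BM. The part of such cells or their RNA in the Igfbp1 level was not tested.

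Igfbp2, a binding protein of fetal tissues, was 892, 1052 and 959 FPKM in D5-LSKCD201-, and its mean ranked 54th of all genes. It was 275, 262 and 263 FPKM in mESC and 93.2, 106 and 109 in D5-LSKCD201+. FL libraries were at 1.47, 0.50 and 1.45 FPKM and BM libraries at 0, 0.717 and 1.15. The first 3 groups stood apart from each other and from FL and BM, while FL and BM overlapped. Its neighbor Igfbp5, which binds to extracellular matrix, was 22.3, 21.4 and 21.7 FPKM in D5-LSKCD201+, above the 3.05, 1.23 and 2.44 FPKM of D5-LSKCD201-. It was at most 0.0799 FPKM in mESC, FL and BM, which overlapped. The ratio of mean Igfbp2 to mean Igfbp5 FPKM was 432 in D5-LSKCD201-, against 4.70 in D5-LSKCD201+.

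Igfbp4 (chr11:99041244-99054392, plus strand), a binding protein that the protease PAPP-A cleaves, was the most abundant member in both in vivo groups. It was 78.0, 104.9 and 99.0 FPKM in BM and 101, 92.3 and 85.1 in FL, which overlapped. D5-LSKCD201+ libraries were higher, at 270.0, 261 and 274 FPKM. D5-LSKCD201- libraries were lower, at 33.3, 25.4 and 39.7 FPKM, and mESC lowest, at 2.19, 2.38 and 2.06 FPKM.

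Igfbp7 (chr5:77349240-77408041, minus strand), which binds IGFs weakly and is found in vessel walls, was 46.9, 39.8 and 43.6 FPKM in D5-LSKCD201+, above the 20.7, 28.8 and 24.1 FPKM of D5-LSKCD201-. It was 3.26, 2.40 and 2.73 FPKM in mESC and 1.25, 1.49 and 2.58 in BM, which overlapped, and 0.197, 0.186 and 0.215 in FL. Its end overlaps the gene Polr2b by 85 bases, and Polr2b was 23.2 to 74.0 FPKM in the sorted-cell libraries. Igfbp6 (chr15:102144362-102149511, plus strand), which prefers IGF-II, was low everywhere. The highest Igfbp6 library was mESC replicate 1 at 0.876 FPKM, and D5-LSKCD201+, mESC and D5-LSKCD201- overlapped, with FL at 0.125 to 0.245 and BM at 0.0862 to 0.122.

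**Figure D2:**
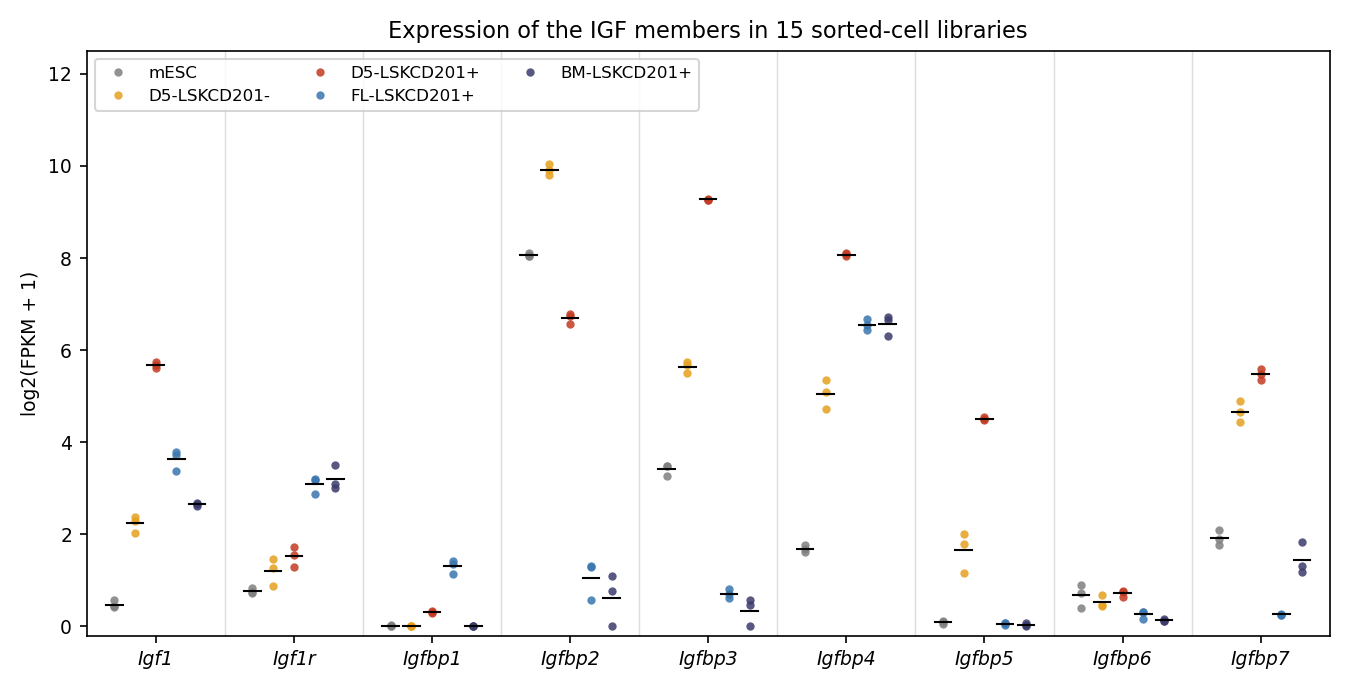
Expression of the 9 IGF genes as log2(FPKM + 1) (vertical axis) in 15 sorted-cell libraries; each point is 1 library, colors give the 5 groups and the black line is the mean of 3 replicates. D5-LSKCD201+ points are highest for Igf1, Igfbp3, Igfbp4, Igfbp5 and Igfbp7, D5-LSKCD201- points for Igfbp2, FL points for Igfbp1, and FL and BM points for Igf1r.

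Between D5-LSKCD201+ and D5-LSKCD201- cells, which share a culture and differ by the CD201 gate, 4 members were higher and 1 was lower of the 8 tested. Genes were tested with limma on log2(FPKM + 1), which understates the change of low genes, and were called where the adjusted p was below 0.05 and the log2 fold change was 1 or more in size. Of all 13691 genes tested in this comparison, 24.7% were called. Igfbp3 was higher by 3.63 ± 0.07 (log2 fold change ± SE, adjusted p = 5.65e-08, limma), a 12.6-fold ratio of means. Igf1 was higher by 3.44 ± 0.10 (adjusted p = 3.16e-07, limma), Igfbp4 by 3.02 ± 0.14 (adjusted p = 2.38e-06, limma) and Igfbp5 by 2.86 ± 0.21 (adjusted p = 1.90e-05, limma). Igfbp2 was 9.43-fold lower in mean FPKM, with a log2 fold change of -3.23 ± 0.08 (adjusted p = 1.83e-07, limma). Igfbp7 had a log2 fold change of 0.81 (adjusted p = 0.000826, limma), under the fold threshold. Igf1r at 0.31 (adjusted p = 0.166, limma) and Igfbp6 at 0.19 (adjusted p = 0.122, limma) did not pass, and Igfbp1 was below the filter of a mean of 0.5 FPKM. Without D5-LSKCD201- replicate 2, which stood apart, Igf1r was at 0.15 (adjusted p = 0.366, limma). Igfbp6 was then at 0.26 (adjusted p = 0.0237, limma), still under the fold threshold. All 9 endothelial markers were higher and all 8 pluripotent markers lower in D5-LSKCD201+ in the same test. Of the other lists, 2 of 8 tested stromal and fibroblast markers were higher and 1 lower, 2 of 7 preadipocyte markers were higher, 2 of 9 hematopoietic markers were higher and 2 lower, and 3 of 3 hepatoblast markers and 1 of 6 myeloid markers were lower. The part of cells of other types in these differences was not tested.

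Against mESC, 5 members were higher and 1 lower in D5-LSKCD201+ cells of 8 tested, where 37.6% of all genes were called. Igfbp4 was higher by 6.39, Igfbp3 by 5.86, Igf1 by 5.20, Igfbp5 by 4.42 and Igfbp7 by 3.55 on the log2 scale, with adjusted p of at most 1.47e-09 (limma). In D5-LSKCD201- cells, 6 of 8 tested members were higher than in mESC and 0 were lower, where 14.3% of all genes were called. Igfbp4 was higher there by 3.37, Igfbp7 by 2.74, Igfbp3 by 2.23, Igf1 by 1.76 and Igfbp5 by 1.56, with adjusted p of at most 0.000621 (limma). Igfbp2 was the member that moved in opposite directions, with a log2 fold change of 1.85 ± 0.07 in D5-LSKCD201- (adjusted p = 1.64e-06, limma) and of -1.37 ± 0.06 in D5-LSKCD201+ (adjusted p = 2.63e-08, limma). Both comparisons share the mESC libraries. Igf1r had log2 fold changes of 0.75 and 0.44 over mESC in the D5 cells with and without CD201, both under the fold threshold, and Igfbp6 did not pass in either. The adjusted p of Igf1r without CD201 was 0.0457 (limma). With 1 library left out, this fold change ranged from 0.30 to 0.60 and its adjusted p from 0.00105 to 0.125 (limma). Igf1 and Igfbp5 averaged under 0.5 FPKM in mESC and passed the filter only through the D5 cells, so their calls are no support for a difference. Without these 2 genes, 3 members were higher and 1 lower with CD201, and 4 higher and 0 lower without it. Stromal and fibroblast markers were higher in 6 of 7 tested in both D5 groups, and endothelial markers in 9 of 9 with CD201 and 6 of 9 without. Pluripotent markers were lower in 8 of 8 with CD201 and 3 of 8 without. Preadipocyte markers were higher in 5 of 7 with CD201 and 3 of 7 without. With CD201, 2 of 6 tested hematopoietic markers were higher and 1 lower, 3 of 5 myeloid markers were higher and 1 lower, and the 1 hepatoblast marker tested was not called. Without CD201, 3 of 6 hematopoietic, 3 of 5 myeloid and 3 of 4 hepatoblast markers were higher. Their part was not tested.

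The comparisons with cells from the animal ask how far the D5-LSKCD201+ cells resemble their in vivo counterparts. In FL cells, 1 member was higher and 6 were lower than in D5-LSKCD201+ of 8 tested, where 34.7% of all genes were called. In BM cells, 1 was higher and 6 were lower of 7 tested, where 44.7% were called. The 2 comparisons share the D5-LSKCD201+ libraries. Igfbp3 had log2 fold changes of -8.56 ± 0.07 in FL and -8.93 ± 0.14 in BM. For Igfbp2 the values were -5.63 and -6.06, for Igfbp7 -5.21 and -4.03, for Igfbp5 -4.45 and -4.47, for Igf1 -2.05 and -3.02, and for Igfbp4 -1.52 and -1.52. All of these had an adjusted p of at most 6.16e-06 (limma). Igfbp5 in both comparisons, Igfbp7 in that with FL and Igfbp3 in that with BM passed the filter only through D5-LSKCD201+, so those calls are no support for a difference. Without them, 1 member was higher and 4 were lower in each comparison. Igf1r was higher by 1.57 ± 0.15 in FL (adjusted p = 6.97e-05, limma) and by 1.69 ± 0.17 in BM (adjusted p = 4.44e-05, limma). Igfbp1, which passed the filter only through its FL level, had a log2 fold change of 0.99 in FL (adjusted p = 0.000102, limma), just under the fold threshold, and 1.07 without FL replicate 2. Igfbp6 was under the filter in both comparisons, and Igfbp1 in that with BM. In both in vivo groups 9 of 10 hematopoietic markers were higher and 1 was lower than in D5-LSKCD201+, and 7 (FL) or 8 (BM) of 9 endothelial markers were lower. Stromal and fibroblast markers were lower in 5 (FL) or 6 (BM) of 7 tested, and myeloid markers were higher in 8 of 8 (FL) or 5 of 6 (BM). Hepatoblast markers were higher in 7 of 7 tested in FL, and in BM 1 was higher and 1 lower of 2. Preadipocyte markers were split, with 3 higher and 4 lower of 7 in FL and 2 higher and 4 lower in BM. Pluripotent markers were lower in 3 (FL) or 4 (BM) of 5 tested, and 1 was higher in BM. Their part in these differences was not tested.

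**Figure D3:**
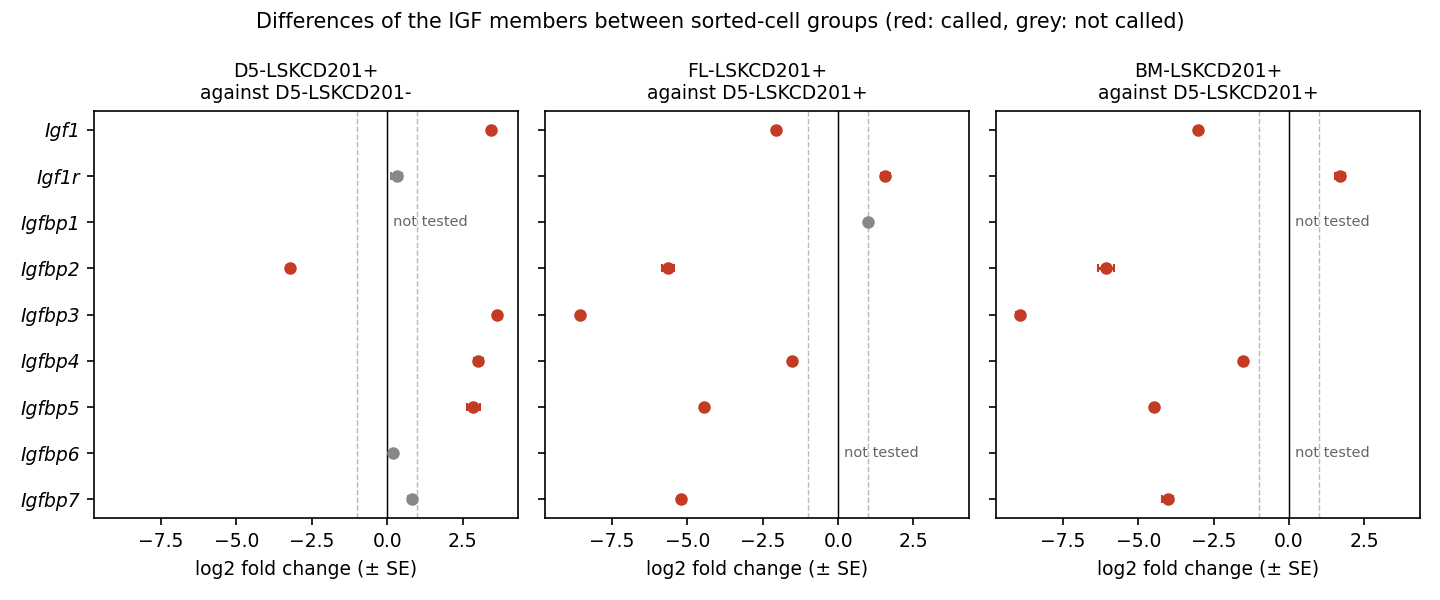
Log2 fold change (horizontal axis, ± SE) of each IGF gene for D5-LSKCD201+ against D5-LSKCD201-, FL-LSKCD201+ against D5-LSKCD201+ and BM-LSKCD201+ against D5-LSKCD201+; red points were called, grey points were not, and dashed lines mark the fold threshold of 1. Igfbp2 lies left of 0 in all 3 panels, so D5-LSKCD201+ cells are below D5-LSKCD201- cells but above FL and BM cells in it. Igf1r alone is called higher in FL and BM.

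Between FL and BM cells, 2 of 6 tested members were called, where 19.1% of all genes were called. These were Igfbp1 and Igfbp7, which each passed the filter only through the group where it was high, so the count is no support for a difference. With a filter at 1 FPKM neither was tested and 0 members were called (limma), with 1, Igf1, at an unadjusted p under 0.05. Igfbp1 averaged 1.48 FPKM in FL and was listed at 0 in every BM library, and 7 of 7 tested hepatoblast markers were higher in FL. Of the other lists, 5 of 8 myeloid, 2 of 9 endothelial and 1 of 10 hematopoietic markers were higher in FL, 1 of 7 preadipocyte markers was higher and 2 were lower, 1 of 3 stromal and fibroblast markers was higher and 1 lower, and 1 of 3 pluripotent markers was lower. Their part was not tested. Igfbp7 was 8.92-fold lower in FL in mean FPKM, with a log2 fold change of -1.18 ± 0.19 (adjusted p = 0.00141, limma), and of -0.98 without BM replicate 3, under the fold threshold. Igf1 had a log2 fold change of 0.97 ± 0.13 (adjusted p = 0.000713, limma), under the threshold, and 1.10 without FL replicate 1, the library that stood apart. Igfbp4 at -0.01 ± 0.13, Igf1r at -0.12 ± 0.17 and Igfbp2 at 0.43 ± 0.32 did not pass the test (adjusted p = 0.960, 0.570 and 0.283, limma), and Igfbp3, Igfbp5 and Igfbp6 were under the filter. With 1 library left out, Igfbp2 ranged from 0.12 (without BM replicate 1) to 0.67.

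In total cells of the cocultures, the comparison of OP9 cells with gelatin asks what the stromal layer adds. Of 7 tested members, 3 were higher and 1 was lower in 3D+OP9, where 2.62% of all genes were called. Igf1 was 1.27, 1.32 and 1.53 FPKM with OP9 and 0.16, 0.03 and 0.15 with gelatin. Igfbp5 was 12.3, 14.4 and 17.9 FPKM with OP9 and 3.97, 2.82 and 5.88 with gelatin. Igfbp4 was 107.5, 121 and 61.8 FPKM with OP9, the lowest value in replicate 3, and 41.4, 25.8 and 29.4 with gelatin. The groups did not overlap in any of these 3 genes. The log2 fold changes were 1.63 ± 0.23 for Igfbp5 (adjusted p = 0.00772, limma), 1.53 ± 0.27 for Igfbp4 (adjusted p = 0.0169, limma) and 1.09 ± 0.12 for Igf1 (adjusted p = 0.00297, limma). Igf1 averaged 0.113 FPKM with gelatin and passed the filter only through its level with OP9, so its call is no support for a difference. With a filter at 1 FPKM it was not tested, and 3 members were called. Igfbp3 was 64.1, 64.0 and 33.4 FPKM with OP9 and 154, 135 and 128 with gelatin. All its OP9 libraries were below the gelatin libraries, with a log2 fold change of -1.41 ± 0.24 (adjusted p = 0.0153, limma).

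The Igfbp4 and Igfbp3 calls were lost when certain single libraries were left out, with log2 fold changes of 1.34 to 1.48 for Igfbp4 and of -1.33 and -1.43 for Igfbp3, close to those with all libraries. The adjusted p of Igfbp4 (limma) was 0.0659 without 3D+OP9 replicate 1, 0.0596 without 3D+OP9 replicate 2, 0.0893 without gelatin replicate 2 and 0.0645 without gelatin replicate 3, and that of Igfbp3 was 0.0556 without gelatin replicate 1 and 0.0761 without gelatin replicate 2. The Igf1 call was lost with quantile normalization (log2 fold change 0.94, adjusted p = 0.00426, limma), under the fold threshold. Without gelatin replicate 2, 2 members were called. Without 3D+OP9 replicate 3, which stood apart, the log2 fold changes were 1.82 for Igfbp4 (adjusted p = 0.00154, limma) and -1.10 for Igfbp3 (adjusted p = 0.000911, limma).

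The other members did not pass. Igfbp2 was 211, 197 and 266 FPKM with OP9 and 401, 328 and 232 with gelatin, which overlapped, with a log2 fold change of -0.48 ± 0.20 (adjusted p = 0.208, limma). Igf1r was 9.73, 9.68 and 10.6 FPKM with OP9, each below the 11.3, 10.7 and 10.9 FPKM with gelatin (log2 fold change -0.12, adjusted p = 0.459, limma). Igfbp7 was 4.92, 4.08 and 5.69 FPKM with OP9 and 4.76, 3.12 and 3.89 with gelatin (adjusted p = 0.390, limma). Igfbp6, at 0 to 0.24 FPKM, and Igfbp1, at 0 to 0.04 FPKM, were under the filter. Among markers, 7 of 9 tested endothelial, 5 of 7 hematopoietic, 3 of 8 stromal, 2 of 8 pluripotent and 1 of 7 preadipocyte genes were called higher with OP9. Hepatoblast genes were called higher in 0 of 4 tested and myeloid genes in 0 of 1, and no tested marker was called lower. Some uncalled markers were still below gelatin in every OP9 library. Pou5f1 was 327 to 503 FPKM against 579 to 653, and Nanog 70.3 to 76.7 against 106 to 171. Coro1a, a hematopoietic marker, was 1.54 to 3.38 FPKM against 4.09 to 4.61. Other pluripotent markers, Esrrb, Zfp42, Dppa5a and Klf4, were above gelatin in every OP9 library. The preadipocyte sum was 34.3 to 36.1 FPKM with OP9 and 27.6 to 36.7 with gelatin, which overlapped, and the stromal sum was 62.4 to 71.8 FPKM against 29.3 to 41.0 with gelatin. How much of the RNA came from OP9 cells was not tested. Igfbp3 was thus lower in total 3D+OP9 cells than on gelatin, while D5-LSKCD201+ cells sorted from 3D+OP9 held 617 ± 3.69 FPKM of it. The 2 sets of libraries were normalized separately, and their levels were not tested against each other.

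**Figure D4:**
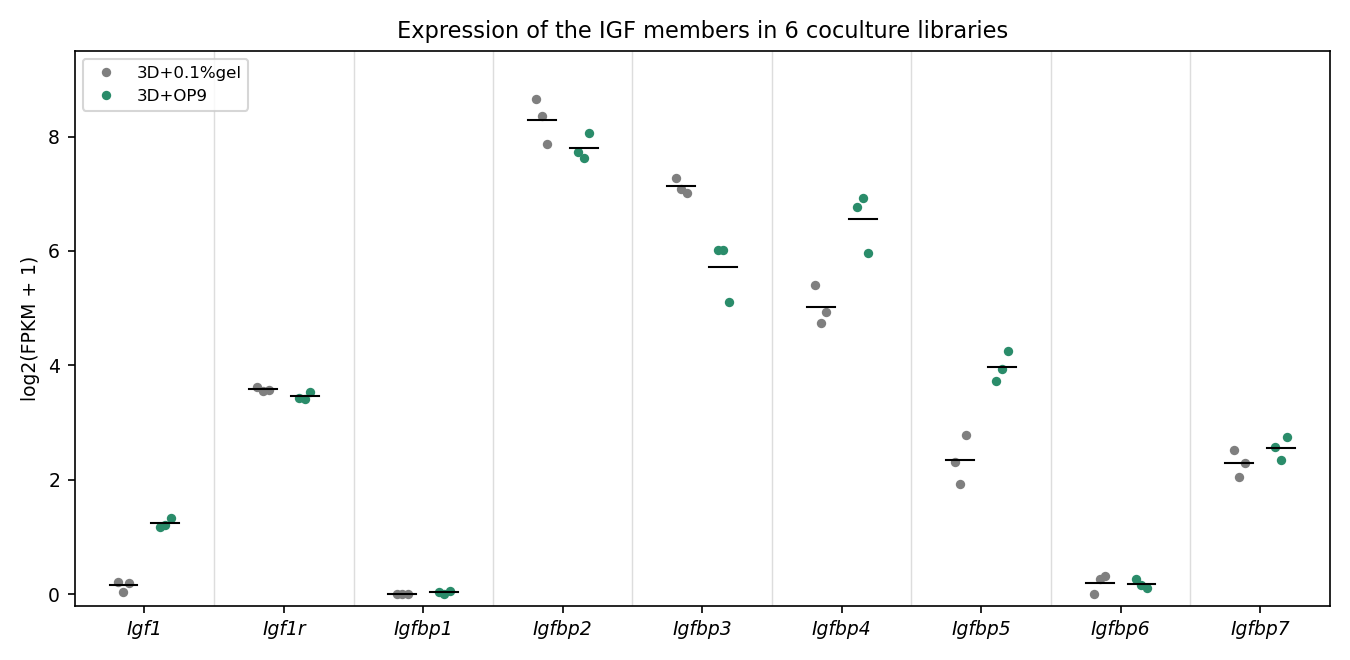
Expression of the 9 IGF genes as log2(FPKM + 1) (vertical axis) in total cells of 6 coculture libraries; each point is 1 library, grey for 3D+0.1%gel and green for 3D+OP9, and the black line is the mean of 3 replicates. OP9 points lie above gelatin points for Igf1, Igfbp4 and Igfbp5 and below them for Igfbp3, and both groups overlap for Igfbp2 and Igfbp7.

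The other genes of the pathway were taken from a list of 46, which held further ligands and receptors, adaptors, related binding proteins, proteases of the binding proteins and downstream signaling genes. Igf2, the second ligand, was 1699, 1654 and 1675 FPKM in D5-LSKCD201+, against 119, 93.0 and 128 FPKM in D5-LSKCD201-. It was 35.4, 46.4 and 48.0 FPKM in FL, 0.727, 1.81 and 2.82 in BM and 2.58, 3.62 and 3.17 in mESC. D5-LSKCD201+ libraries were thus far above all others. Between D5-LSKCD201+ and D5-LSKCD201-, 10 of 37 tested genes of the list were higher and 4 were lower, where 24.7% of all genes were called (1475 higher and 1904 lower). The median log2 fold change was 0.16 over the list and -0.12 over all genes. Igf2 was higher by 3.88 ± 0.11 (adjusted p = 2.81e-07, limma). Esm1, an endothelial proteoglycan, was higher by 2.36, and Adam12, a protease that cleaves IGFBP3 and IGFBP5, by 2.35. Htra1, a secreted serine protease that also cleaves binding proteins, had a log2 fold change of -2.66, and Irs4, an adaptor of the receptor, of -2.52. These 5 had the largest called differences of the list. Esm1 averaged 0.134 FPKM in D5-LSKCD201- and Irs4 0.0987 FPKM in D5-LSKCD201+, so each passed the filter only through its higher group and its call is no support for a difference. Without them, 9 genes of the list were higher and 3 lower. Igf2r, which removes IGF-II from the cell surface, was 16.0, 16.5 and 15.8 FPKM in D5-LSKCD201+, against 3.08, 1.67 and 3.12 FPKM in D5-LSKCD201- (log2 fold change 2.27, adjusted p = 2.46e-05, limma). Insr, the insulin receptor, was 1.67 to 2.57 FPKM and 1.58 to 1.97 FPKM, which overlapped (adjusted p = 0.205, limma).

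With OP9, Igf2 was the 1 gene of 37 tested in the list that was called, where 2.62% of all genes were. It was at 471, 565 and 508 FPKM against 212, 69.5 and 120 with gelatin. Its log2 fold change was 2.08 ± 0.35 (adjusted p = 0.0143, limma), and the adjusted p was 0.0579 without 3D+OP9 replicate 2 (log2 fold change 2.01) and 0.0535 without gelatin replicate 3 (log2 fold change 2.07). Igf2r had a log2 fold change of 0.95 (adjusted p = 0.00754, limma), under the fold threshold, and 1.10 without gelatin replicate 1. Insr had -0.05 (adjusted p = 0.836, limma). The median over the list was 0.04, against 0.01 over all genes.

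Of the list, 16 of 35 tested genes rose and 3 fell from mESC to D5-LSKCD201+, where 37.6% of all genes were called (2626 higher and 2430 lower). From mESC to D5-LSKCD201-, 12 of 36 rose and 3 fell, where 14.3% were called (1476 higher and 473 lower). In FL, 8 of 36 were higher and 15 lower than in D5-LSKCD201+, where 34.7% were called (2673 higher and 2054 lower). In BM 12 of 35 were higher and 15 lower, where 44.7% were called (3753 higher and 2406 lower). Igf2 had log2 fold changes of -5.25 in FL and -9.31 in BM against D5-LSKCD201+. Insr was 8.15, 8.26 and 10.7 FPKM in FL, above the 2.63, 2.88 and 2.88 of BM, with no overlap (log2 fold change 1.39, adjusted p = 0.000136, limma). Between FL and BM, 6 of 29 were higher in FL and 4 lower, where 19.1% of all genes were called (1050 higher and 1531 lower). Of the called list genes in these 5 comparisons, 8, 5, 5, 8 and 2 in the order given passed the filter only through the group where they were high, and these counts are descriptions.

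Across the 15 sorted-cell libraries, which hold 5 cell types in triplicate, the pattern of each of the 7 members above 0.5 FPKM was set against 14457 genes on the log2 scale. These correlations describe the groups, since replicates share a cell type, and many genes lie close together: by Spearman's rho at most 2 of the 3 leading genes of any member were the same, and over the 5 group means at most 1. Igfbp3 was most like Etv2 (Pearson's r = 0.995), Gipc1 (0.994) and Ctsl (0.994), and Etv2 is a master regulator of blood and endothelial fate. Igfbp5 was most like Bace2 (0.996), Mall (0.996) and Hand2 (0.996). Igf1 was most like Gimap4 (0.988), Itm2a (0.987) and Ywhab (0.984), and Igfbp4 like Clic1 (0.990), Fam114a2 (0.990) and Dnajc3 (0.989). Igfbp2 was most like Bcat1 (0.994), Sgk1 (0.992) and Gm6560 (0.992), and Igfbp7 like Tgfb1i1 (0.988), Gm10406 (0.984) and Nsdhl (0.982). Igf1r was most like Ash1l (0.995), Phactr4 (0.991) and Cntln (0.990). Among the members, r was 0.939 for Igfbp3 with Igfbp7, 0.932 for Igfbp3 with Igfbp5, 0.923 for Igf1 with Igfbp4 and -0.945 for Igf1r with Igfbp2.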

How the data were processed

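The study's methods describe TRIzol RNA, VAHTS mRNA-seq v2 libraries, alignment to GRCm38 with HISAT2 2.0.5, StringTie 1.3.3 and Cuffdiff 1.3.0. The methods name GRCm38 for the RNA-seq as a whole, while the submitters' notes list mm9 as well. The sources used here therefore do not settle which build served the coculture libraries. The authors deposited FPKM for each gene and library, in 2 tables normalized separately. Of the 22899 coculture genes, 3578 were blank and 19321 had values. No reads or counts were used here, so the depth is unknown.

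Groups and replicates came from the labels. A pseudocount of 1 was added to FPKM before the log2 transform. Genes were kept where FPKM averaged 0.5 or more in the libraries compared, and tested with limma 3.58.1 (trend, two-sided) in R 4.3.3, with Benjamini-Hochberg adjustment over all genes tested, in 7 comparisons. A call needed an adjusted p below 0.05 and a log2 fold change of 1 or more in size. The study describes its replicates as biological or as independent experiments. Deviations of same-numbered FL and BM libraries had a positive r (0.242, 0.202 and 0.159). FL replicates 2 and 3 were, however, closest to BM replicates 3 and 2. The main fits held no replicate block, and a block on replicate number, run as an alternative, changed no call of a member. The members and lists were chosen with earlier results of these data known. Named genes were the 9 members, Igf2, Igf2r and Insr, the 5 list genes with the largest called differences between the D5 groups and between the cocultures, and the 3 genes most like each member. Markers named singly were chosen after their values were seen. Positions were matched on Ensembl identifiers to GENCODE M21, and promoters came from RefSeq (GRCm38.p6), where all 9 members matched by symbol. Code was tested on simulated data. Alternatives were quantile normalization, a pseudocount of 0.1, a filter at 1 FPKM or none, a replicate block, a constant prior variance, one fit over 5 groups, the adjusted p alone, and leaving out each library; Spearman's rho and group means for the correlations. Figures were drawn with matplotlib 3.10.9 in Python 3.11.15.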

Additional observations from a re-analysis of the deposited data

Results flagged for a closer look

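Igfbp2 differed between the D5 groups in its direction from mESC, higher in D5-LSKCD201- (log2 fold change 1.85) and lower in D5-LSKCD201+ (log2 fold change -1.37). The test of the difference itself, D5-LSKCD201+ against D5-LSKCD201-, gave -3.23 ± 0.08 (adjusted p = 1.83e-07, limma), with every D5-LSKCD201+ library below every D5-LSKCD201- library. No other member was called in opposite directions in this way. No single value was tested for outlying samples, because each group holds 3 libraries.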

How the results depend on the processing

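The sequencing depth is unknown, so single FPKM under 1 carry no error other than the replicate spread. Of 660 alternative log2 fold changes of members, 640 kept their direction and stayed called or not called, 8 lost a call, 6 gained one and 6 changed sign. Some of the 640 crossed the adjusted p threshold without a change of call. An example is Igfbp6 between the D5 groups without D5-LSKCD201- replicate 2 (adjusted p = 0.0237, against 0.122 with all libraries, limma). All 6 sign changes were in differences that had not passed: with 1 library left out, Igfbp6 ranged from -0.10 to 0.15 in D5-LSKCD201+ against mESC (negative without mESC replicate 2), and in FL against BM Igf1r ranged from -0.22 to 0.035 (positive without BM replicate 1) and Igfbp4 from -0.14 to 0.075 (positive without FL replicate 3, BM replicate 2 or BM replicate 3), while Igf1r was 0.070 there with quantile normalization. Htra1 in 3D+OP9 against gelatin ranged from -0.13 to 0.14 (positive without gelatin replicate 3). Leaving out 1 library gave 2 to 4 members called in 3D+OP9 against gelatin and 1 to 3 in FL against BM, where a filter at 1 FPKM gave 0 (limma), because neither Igfbp1 nor Igfbp7 was then tested (1 member, Igf1, at an unadjusted p under 0.05). For the pathway list in 3D+OP9 against gelatin, 3 genes were called with a pseudocount of 0.1 and 0 to 2 with 1 library left out (0 without 3D+OP9 replicate 2, with 12 at an unadjusted p under 0.05, or without gelatin replicate 3, with 17). The share of all genes passing under these alternatives is not given here. These counts of members and list genes therefore describe the calls only and say nothing particular to the members or the list. With the adjusted p alone, the list had 6 of 37 genes called in 3D+OP9 against gelatin (6.88% of all genes), 24 of 37 between the D5 groups (68.3%), 34 of 35 in D5-LSKCD201+ against mESC (85.5%), 27 of 36 in D5-LSKCD201- against mESC (54.6%), 33 of 36 in FL against D5-LSKCD201+ (72.1%), 31 of 35 in BM against D5-LSKCD201+ (83.4%) and 20 of 29 in FL against BM (55.1%), and the members called in these 7 comparisons were 4, 6, 7, 7, 8, 7 and 3. Quantile normalization moved the median of all genes by 0.03 to 0.21 on the log2 scale, and with it Igf1 had 0.94 in 3D+OP9 against gelatin, a lost call, and 1.13 in FL against BM, a gained call. A pseudocount of 0.1 gave calls to Igf1r in D5-LSKCD201+ against mESC (1.28), Igfbp1 in FL against D5-LSKCD201+ (2.19) and Igf1 in FL against BM (1.08). The replicate block changed no call of a member, with 4 called in 3D+OP9 against gelatin and 5 between the D5 groups. Deviations of same-numbered libraries had a positive r for every replicate in the cocultures (0.182, 0.0724 and 0.291) and in FL against BM, and in no other comparison. In the cocultures, 3D+OP9 replicate 2 was closest to gelatin replicate 1.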
